A study of Mus musculus with 4 samples.

Results

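The ileal and the jejunal epithelium of mice homozygous for the G181R form of D-amino acid oxidase (DAO) were compared, 1 array each, 2 of the 4 arrays in the series. Jejunum and ileum of mice with 2 wild-type copies of the gene, 1 array each, gave the regional difference against which the G181R difference was read. All mice were 9 weeks old, on C57BL/6J, and Tcrbd-/-, that is, without beta and delta chains of the T cell receptor. Epithelium was scraped off mechanically, and RNA of 5 mice was pooled for each array. No group had a replicate array, so no value below has an error between animals and no test was made.

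DAO is an enzyme that oxidises D-amino acids, which gut bacteria release in quantity, and G181R is a missense allele known for loss of most of its activity. The small intestine changes along its length. The jejunum takes up most sugar, fat and drugs, while the ileum recovers bile acids and vitamin B12, is rich in lymphoid follicles, and meets a denser flora.

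The quantity used throughout is the gap, the ileal minus the jejunal log2 signal, so that a positive gap means more signal in ileum. Signals are given as scaled signals, the processed signals after each array was brought to a common 75th percentile of 169. They compare 1 probe between arrays and say nothing about 1 gene against another. A gene was measured in a genotype when both of its arrays showed the probe well above background, and it was called different from a 2-fold gap. In G181R mice 21605 genes were measured and 3465 were called, 16.0% of them. Signal was at least 2-fold higher in ileum for 1578 genes (7.30%) and at least 2-fold lower for 1887 (8.73%). In wild-type mice the counts were 1549 higher (7.42%) and 1902 lower (9.11%) among 20879. Gaps of at least 16-fold were found for 60 genes higher and 101 lower in G181R ileum, and for 49 and 74 in wild-type ileum.

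The arrays had between 32505 and 34187 of 56605 probes well above background, and no spot was saturated. All 4 lay on 1 slide scanned in 1 session. Replicate spots of 295 probes gave an SD of 0.043 for a G181R gap and 0.060 for the difference of the gaps of the genotypes (medians over probes), which covers spots of 1 hybridisation only. Epithelial markers were present: 14 of 14 enterocyte markers were measured in G181R mice, with a median gap of -0.30. Dao gave a scaled signal of 1307 in G181R jejunum and 139 in G181R ileum, against 1413 and 143 in wild-type mice. Its gap was -3.23 in G181R and -3.30 in wild-type, and since the allele alters the protein, this is no check of the labels.

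The landmarks of both regions were in place in G181R mice. Fabp6, the bile acid carrier of the ileal enterocyte (probe on chromosome 11 at 43410973 to 43411032, mm9), gave 17.9 in G181R jejunum and 156574 in G181R ileum, and 12.1 and 163573 in wild-type. Its gap was 13.09 in G181R and 13.72 in wild-type, the top of the ranking in G181R. Slc10a2, the importer of bile acids across the apical membrane, gave 49.0 in jejunum and 12534 in ileum of G181R mice, and 43.7 and 16198 in wild-type, or 256-fold and 371-fold higher in ileum. In bulk tissue, fewer cells of a type and less RNA per cell cannot be told apart. Others among the 10 largest ileal gaps that differed by less than 2-fold between the genotypes were Saa1 (7.29 in G181R, 7.67 in wild-type), an acute phase protein, and Cryab, a small heat shock protein (7.05, 7.50). The keratin-associated genes Krtap19-1 (6.59, 6.95) and Krtap4-8 (6.31, 6.55) and Gp1bb (6.14, 6.62), a platelet glycoprotein chain, were also among them, though the other measured Gp1bb probe gave a G181R gap of only 1.27. Bounds are given for genes not well above background in G181R jejunum. Slc25a48, a mitochondrial carrier, was at least 363-fold higher in ileum, while a second probe, measured on all arrays, gave a gap of 5.03. The homeobox gene Hoxb9 was at least 152-fold higher, and Slc6a14, an importer of neutral and cationic amino acids, at least 113-fold. Ileal signals in G181R and wild-type were 2234 and 3102 for Slc25a48 and 938 and 1368 for Hoxb9. For Slc6a14 they were 693 and 191, so its ileal signal was higher in G181R.

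At the jejunal end, Reg1, a secreted lectin, gave 53743 in G181R jejunum and 113 in G181R ileum, and 67577 and 125 in wild-type, gaps of -8.90 and -9.08. Lct encodes lactase, the milk sugar hydrolase. It gave 54584 in jejunum and 129 in ileum of G181R mice, and 75195 and 82.6 in wild-type. Its gap was -8.73 in G181R and -9.83 in wild-type. Cyp2b10 and Cyp2b9, cytochromes P450 of drug clearance, had gaps of -8.40 and -8.09 in G181R (-8.23 and -8.36 in wild-type). Onecut2, a transcription factor of the proximal intestine, had -7.66 and -8.00. Adh4, an alcohol and retinol dehydrogenase, had -7.03 and -7.22. Tmprss15, the enteropeptidase that activates trypsinogen, was not well above background in G181R ileum and at least 422-fold higher in jejunum. The corresponding bound was 150-fold for Cyp1a1, a cytochrome P450 that answers to dietary aryl hydrocarbons. The transcription factor Gata4, which marks the jejunum, gave 1280 and 42.9 in G181R and 1281 and 19.0 in wild-type. Its jejunal signals were nearly equal, and its gap was -4.90 in G181R and -6.07 in wild-type. With normexp background correction, which handles dim signals differently, the difference of gaps was 0.38 in place of 1.18 for Gata4 and 0.85 for Lct, both under 2-fold.

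**Figure D1:**
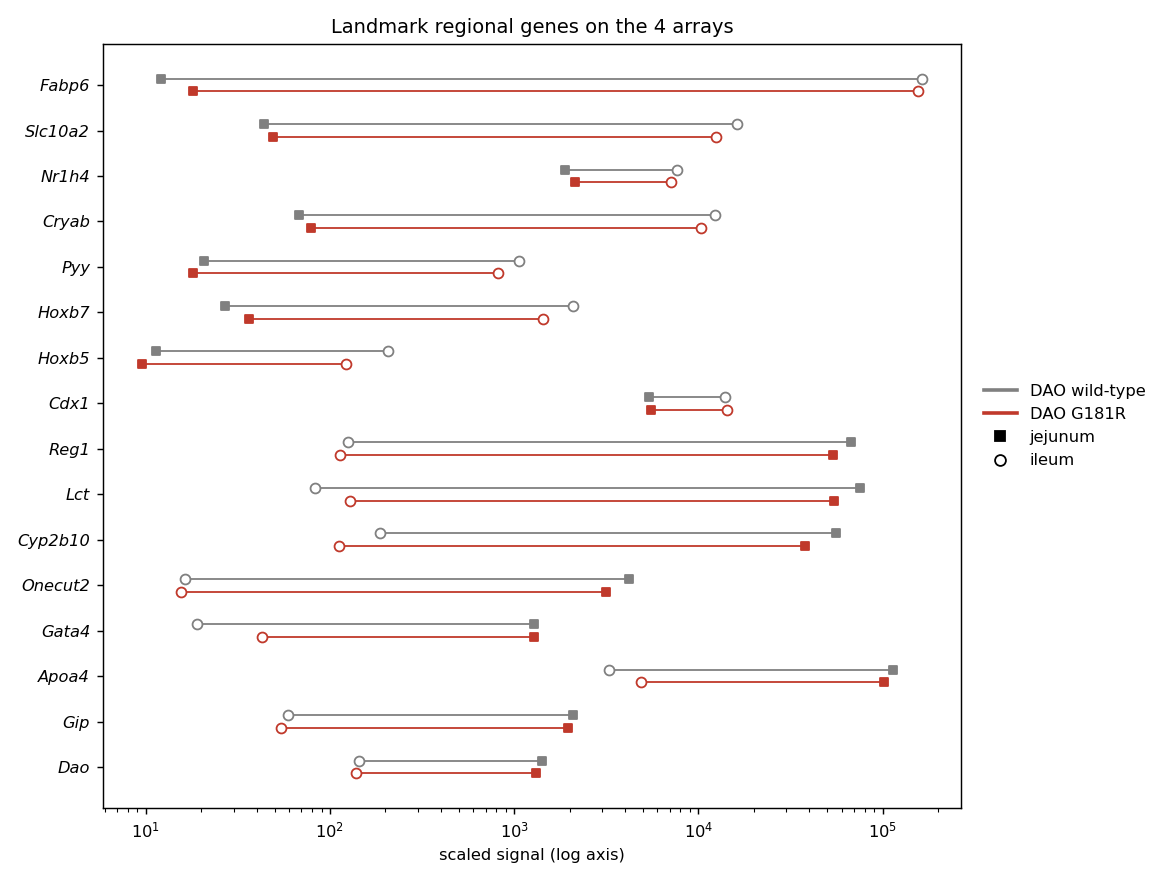
Scaled signal (log axis) of 16 regional genes, with squares for jejunum and open circles for ileum, red for DAO G181R and grey for DAO wild-type, 1 array of pooled RNA each. For Fabp6 the ileal signals were 156574 and 163573 and the jejunal ones 17.9 and 12.1, while Reg1, Lct and Onecut2 ran the other way in both genotypes.

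Gaps of the 2 genotypes were alike for most genes. Across the 20543 genes measured on all 4 arrays the gaps correlated with a Pearson r of 0.886, a value across genes, which are not independent and share the scaling of each array. The gaps of the 2 genotypes share no array. Their median was -0.03 in G181R and -0.05 in wild-type. Of these genes, 3269 had a 2-fold gap in G181R and 3367 in wild-type. Both lists held 2360 genes, 72.2% of the first and 70.1% of the second, and 2343 of them had the same direction.

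A gene was called regional when its gap reached 2-fold in either genotype, which 4276 of the 20543 genes did (20.8%). The gap was called wider or narrower when its size in G181R was larger or smaller by at least 1 on the log2 scale, and turned when both gaps reached 2-fold in opposite directions. The gaps of the genotypes differed by at least 2-fold for 783 of all 20543 genes (3.81%). There were 272 wider genes (6.36% of the regional genes), 224 narrower (5.24%) and 17 turned (0.398%). Wider genes were split into 119 higher in ileum and 153 higher in jejunum, and narrower genes into 114 and 110. With normexp background correction 83 of the 272 and 69 of the 224 stayed in their class. The ileal arrays differed more between the genotypes than the jejunal arrays for 418 of these 513 genes (81.5%), against 63.1% of all genes measured on the 4 arrays.

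**Figure D2:**
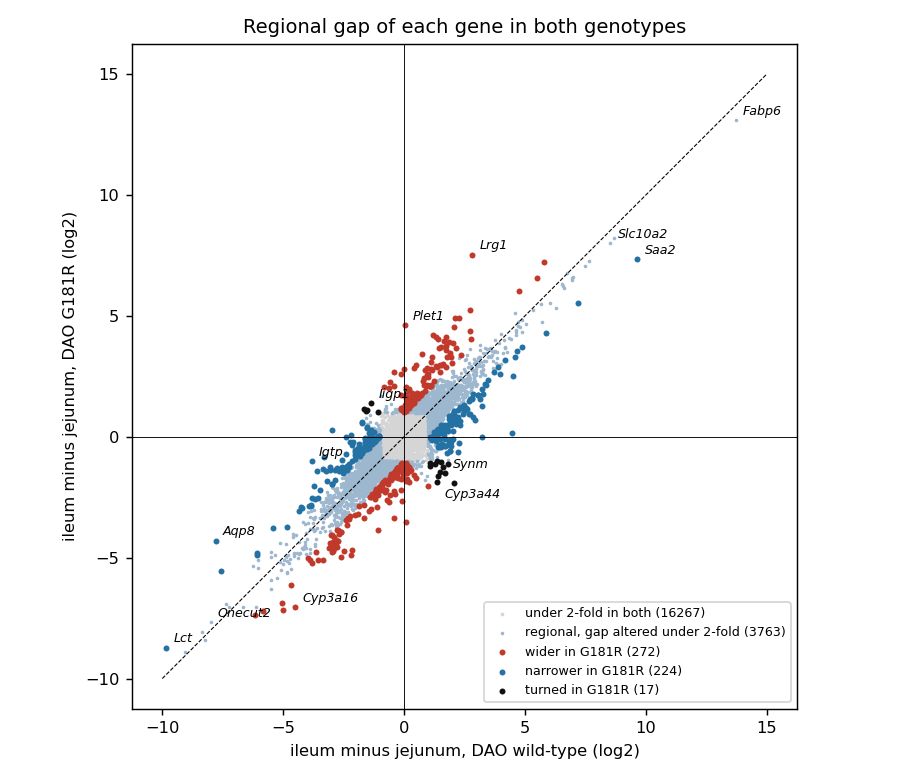
Ileum minus jejunum (log2) of the 20543 genes measured on all 4 arrays, DAO wild-type on the x axis and DAO G181R on the y axis, with equal gaps on the dashed line. Red, blue and black points are the 272 wider, 224 narrower and 17 turned genes, and most points lie along the line (r = 0.886 across genes).

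Among genes higher in ileum, the widest gain of gap was that of Lrg1, a secreted leucine-rich glycoprotein of the acute phase (chromosome 17 at 56259257 to 56259316, mm9). It gave 46.7 in G181R jejunum and 8608 in G181R ileum, and 16.9 and 119 in wild-type. The G181R ileum alone was high, with a gap of 7.53 against 2.82, or 184-fold against 7.07-fold. Plet1, an epithelial surface protein, gave 96.7 and 2358 in G181R and 77.9 and 81.2 in wild-type. There was thus next to no gap in wild-type (0.06) and one of 4.61 in G181R. Ly6d, a surface protein of the Ly6 family, gave 87.9 and 1630 in G181R and 102 and 235 in wild-type, gaps of 4.21 and 1.21.

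In other genes of this group the G181R ileum was again the highest of the 4 arrays. Socs1, the feedback inhibitor of interferon signalling, gave 115 and 1247 in G181R against 109 and 180.6 in wild-type, gaps of 3.43 and 0.73. Tac1, the precursor of substance P, gave 332 and 5765 against 249 and 631, gaps of 4.12 and 1.34. Its second measured probe gave 3.88 in G181R and a difference of gaps of 2.64. The Ly6 family members Ly6a and Ly6c2 had gaps of 4.04 and 2.98 in G181R and 1.42 and 0.49 in wild-type. Rhoj, a small GTPase, had no gap in wild-type (0.00) and 2.81 in G181R. Tat, the tyrosine aminotransferase, had 5.24 and 2.72. Mal, a lipid raft protein of apical sorting, was wider by 1.46, with 33.4 and 5074 in G181R and 36.7 and 2018 in wild-type, so that both ileal arrays were high.

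**Figure D3:**
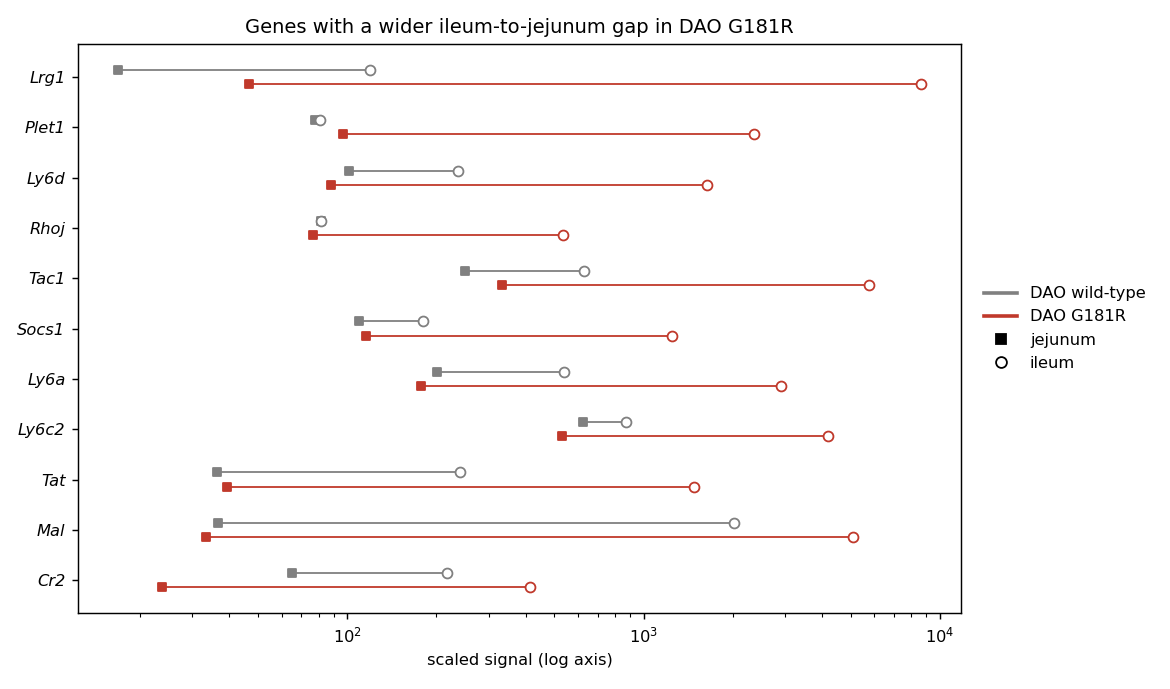
Scaled signal (log axis) of 11 genes higher in ileum whose gap was wider in DAO G181R, with squares for jejunum, open circles for ileum, red for G181R and grey for wild-type. The G181R ileum is the highest of the 4 values for each gene, as for Lrg1 with 8608 against 119 in wild-type ileum.

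Inducible antimicrobial and acute phase genes of the epithelium were measured for 21 of 23 members of their list in G181R mice. At least 2-fold higher in ileum were 12 of them and lower 2, with a median gap of 1.17 against -0.03 over all genes. On the 20 members measured on all 4 arrays the median gap was 1.83 in G181R and 1.29 in wild-type. Saa2 showed how a narrower gap can go with a higher ileal signal. It gave 597 and 96928 in G181R and 39.9 and 32165 in wild-type, so that both tissues were higher in G181R and the gap was 7.34 against 9.65. Duoxa2, the maturation factor of the epithelial peroxide-producing oxidase, likewise gave 381 and 4409 against 65.6 and 1658, gaps of 3.53 and 4.66. With normexp the differences of gaps were -0.88 for Saa2 and -0.51 for Duoxa2, in place of -2.31 and -1.13, and neither was narrower by 2-fold. Reg3a, a bactericidal lectin, gave 15654 and 20222 against 16545 and 5665, a gap of 0.37 in G181R and -1.55 in wild-type. Reg3g, of the same family, had no gap in either genotype (0.01, 0.00). S100a9, a calcium-binding protein of neutrophils and inflamed epithelium, was well above background on the G181R ileum array alone (93.1) and at least 15.1-fold above G181R jejunum. The chemokine Cxcl5 gave 11.8 in jejunum and 175 in ileum of G181R mice (gap 3.88) and was not well above background in either wild-type tissue. Of the neutrophil marker list, 6 of 10 members were measured in G181R mice, with a median gap of -0.54 and none at 2-fold. S100a9 is in that list but not among the 6. Of the 6, 3 had a higher gap in G181R than in wild-type and 3 a lower one. Only Ly6g lay at least 2-fold further toward ileum, against 1.75% of all genes, with a G181R gap of 0.86 and a difference of gaps of 1.72. Summed scaled signals of that list were 21292 and 16571 in G181R jejunum and ileum and 20253 and 15501 in wild-type. The part of neutrophils in these values was not tested.

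Genes of the interferon gamma response had a jejunal gap in wild-type mice that was nearly lacking in G181R mice. The list holds 24 genes, all measured in G181R mice, where 5 were at least 2-fold higher in ileum and 2 lower. On the 23 genes measured on all 4 arrays the median gap was -1.07 in wild-type and -0.01 in G181R, against -0.05 and -0.03 over all genes. The gap was at least 2-fold further toward ileum for 15 of the 23 and for none the other way, while 1.75% of all genes measured on 4 arrays met that rule. Narrower were 8, wider 2 and turned 1. Both tissues took part. The ileal signal was higher in G181R than in wild-type for 21 of the 23, and the jejunal signal was lower for 17.

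Igtp, an interferon-inducible GTPase that guards against intracellular microbes, gave 3276 in G181R jejunum and 1635 in G181R ileum, and 4828 and 343 in wild-type. The jejunal gap of -3.81 in wild-type was -1.002 in G181R. Its neighbour Irgm2, of the same GTPase family, gave 1282 and 1276 in G181R and 1958 and 373 in wild-type. The wild-type gap of -2.39 was thus -0.01 in G181R. Tgtp2 and Iigp1, further members of that family, were turned. Tgtp2 gave 362 and 796 in G181R and 430 and 135 in wild-type, gaps of 1.14 and -1.67. Iigp1 gave 186 and 486 against 198 and 77.3, gaps of 1.38 and -1.36. A second Iigp1 probe gave a G181R gap of 0.47.

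Nlrc5, which switches on MHC class I genes, had a gap of 2.04 in G181R and -0.84 in wild-type. The chemokine Cxcl10 had gaps of 0.59 and -1.72. Guanylate-binding proteins, GTPases of the same defence, were not alike: the difference of gaps was 2.25 for Gbp6 and 1.35 for Gbp2, but 0.01 for Gbp5 and 0.01 for Gbp8. Another Gbp5 probe gave 1.52. Ido1, which degrades tryptophan, was the member that went the other way, with -1.16 in G181R and -0.18 in wild-type.

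The promoters of the 3 GTPase genes Igtp, Irgm2 and Tgtp2 are shown because their gaps in G181R all lay further toward ileum, by 2.38 to 2.81. The promoter of Iigp1, whose difference of 2.74 lies in that range, is not shown here, so the 3 are examples and not the whole family. Each is the 250 bases before the RefSeq start in GRCm38.p6, 5′ to 3′ on the gene's strand, and capitals mark matches to TTCNNNGAA, the palindrome bound by STAT dimers, and to GAAANNGAA, part of the core of the interferon-stimulated response element. They lie at chr11:58199306-58199555 (plus strand), chr11:58214727-58214976 (plus strand) and chr11:49064213-49064462 (minus strand).
Igtp: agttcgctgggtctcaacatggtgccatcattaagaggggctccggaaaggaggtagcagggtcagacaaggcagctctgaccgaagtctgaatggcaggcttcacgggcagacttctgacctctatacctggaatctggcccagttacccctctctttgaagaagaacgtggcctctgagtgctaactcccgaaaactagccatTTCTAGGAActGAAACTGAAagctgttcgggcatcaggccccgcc
Irgm2: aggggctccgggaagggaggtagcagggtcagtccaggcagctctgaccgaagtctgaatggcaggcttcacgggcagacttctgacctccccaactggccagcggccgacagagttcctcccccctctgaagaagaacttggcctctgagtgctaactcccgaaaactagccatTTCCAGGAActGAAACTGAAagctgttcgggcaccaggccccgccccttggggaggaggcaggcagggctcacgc
Tgtp2: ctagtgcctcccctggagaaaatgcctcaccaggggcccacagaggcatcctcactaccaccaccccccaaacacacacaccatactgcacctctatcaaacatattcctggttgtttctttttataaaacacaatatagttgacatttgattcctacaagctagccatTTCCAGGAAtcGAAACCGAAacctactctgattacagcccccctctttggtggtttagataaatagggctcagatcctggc
Each window held 1 match to either motif, with 2 bases between them. The first began 45 bases before the start in Igtp, 75 in Irgm2 and 81 in Tgtp2. Both motifs were searched on both strands, and they may overlap elsewhere. Among 27025 mouse promoters of the same 250 bases, 7.18% held TTCNNNGAA and 7.16% held GAAANNGAA, and among the 11994 of genes measured on all 4 arrays 6.09% and 6.52%. In the 33 promoters found for genes of both interferon lists the shares were 30.3% and 60.6%. Among the 14 of these whose gap lay at least 2-fold further toward ileum in G181R, they were 35.7% and 78.6%. A match describes these letters only and shows no binding. Igtp and Irgm2 are copies of 1 family. Their windows, slid along each other without gaps, were identical at 134 of 220 bases (60.9%) at the best offset. Tgtp2 was at most 39.7% identical to either. An inserted or lost base puts the rest of a window out of register, so these shares can understate likeness. The GATA motif GATAA was in 14.1% of the 92 promoters found for genes with a wider jejunal gap, against 16.2% of the promoters of genes measured on all 4 arrays and 23.0% of all promoters. For TGATAA the shares were 7.61%, 4.58% and 8.16%, and for ATAAA, a CDX-type motif, 41.3%, 27.0% and 38.1%. The TGATAA share of the genes with a wider jejunal gap rested on 7 of the 92 promoters and was not above that of all promoters. In the 71 promoters found for genes with a wider ileal gap, the shares were 19.7% for GATAA, 5.63% for TGATAA and 40.8% for ATAAA. The ATAAA share was thus alike for wider gaps on either side and near that of all promoters, though above that of the measured genes. No test was made.

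Type I interferon genes were higher in jejunum in both genotypes. All 24 list members were measured, 23 were lower in G181R ileum, 12 of them at least 2-fold, and none was 2-fold higher. Their median gap was -1.11 in G181R and -2.05 in wild-type, and 8 were narrower. The gap lay at least 2-fold further toward ileum for 8 of the 24, against 1.75% of all genes. Ifi44, an interferon-induced protein, gave 188 and 106 in G181R and 346 and 34.9 in wild-type, gaps of -0.82 and -3.31. Usp18, which removes the ubiquitin-like protein ISG15, had -2.03 and -3.73, and Isg15 itself -2.27 and -3.17. The RNA sensors Ddx58 (-1.41, -1.39) and Ifih1 (-0.86, -0.85) had equal gaps in both genotypes. Phf11a and Phf11d, which are induced by interferon, were among the 10 largest losses of a jejunal gap, with -0.19 and -0.34 in G181R and -2.24 and -2.17 in wild-type.

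**Figure D4:**
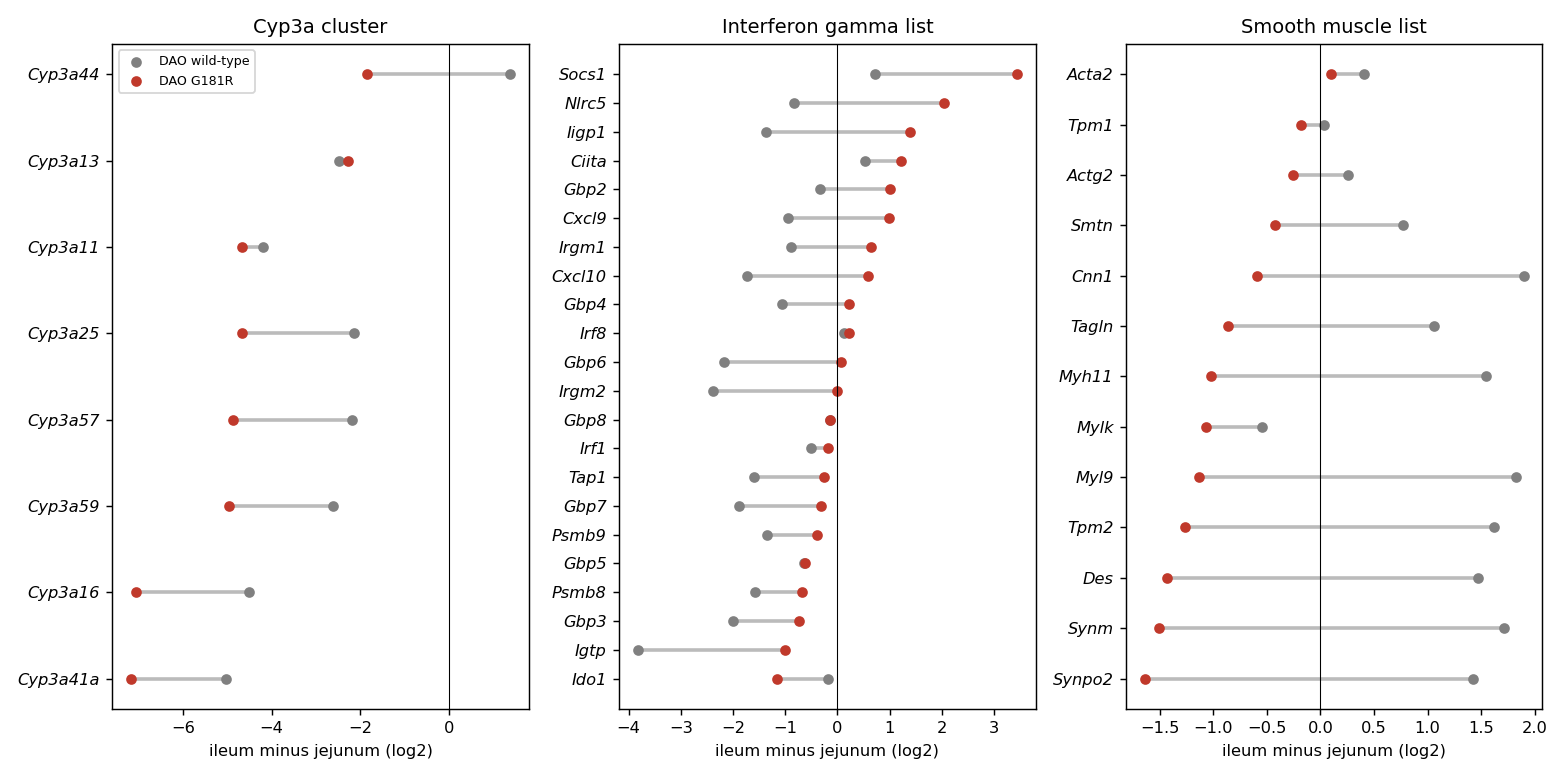
Ileum minus jejunum (log2) of members measured on all 4 arrays, in DAO wild-type (grey) and DAO G181R (red), for the Cyp3a cluster (8 genes), the interferon gamma list (22 of the 23) and the smooth muscle list (13). Red lies left of grey for most Cyp3a and all smooth muscle genes, and right of it for most interferon gamma genes.

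Aqp8, a water channel of the enterocyte, had the largest loss of a jejunal gap. It gave 669 in G181R jejunum and 33.9 in G181R ileum, and 2834 and 12.7 in wild-type. The G181R signal was lower in jejunum and higher in ileum, and the gap was -4.30 against -7.80. Dnase1, a secreted nuclease, gave 28295 and 599 against 36128 and 188, gaps of -5.56 and -7.58, and its other probe gave a difference of 2.24. Mfsd2a, a lysolipid transporter, had a gap of -0.22 in G181R and -2.11 in wild-type, and Cyp4a31, a fatty acid hydroxylase, -1.33 and -3.34. The water channel Aqp3 (-5.04, -4.72) had nearly the same gap in both.

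Cytochromes P450 of the Cyp3a cluster, which clear drugs and bile acids, had wider jejunal gaps in G181R mice. All 8 genes found on the array were measured and at least 2-fold lower in G181R ileum, with a median gap of -4.77 against -2.54 in wild-type. The gap was wider for 5 and turned for 1. It lay at least 2-fold further toward jejunum for 6 of the 8, against 2.06% of all genes. With Cyp3a25 and Cyp3a57 counted once, because their probes are nearly identical, 4 of 7 were wider and 1 turned, with medians of -4.66 and -2.62. Cyp3a16 gave 1865 and 14.0 in G181R and 3609 and 159 in wild-type, gaps of -7.06 and -4.50. With normexp its difference of gaps was -0.62 in place of -2.55, which ends the call of a wider gap. Cyp3a41a gave 14744 and 103 against 27246 and 840, gaps of -7.16 and -5.02. Both tissues were lower in G181R, the ileum by more. Cyp3a44 was turned, with 106 and 29.3 in G181R and 119 and 307 in wild-type, gaps of -1.86 and 1.37, and with normexp its G181R gap was -0.90. The cluster did not move as 1 block. Cyp3a11 had nearly the same gap in both genotypes (-4.66, -4.19), and so did Cyp3a13 (-2.27, -2.47), whose probe lies apart on the same chromosome at 138335412 to 138335471, while the probes of the other 7 lie between 146151322 and 146920697 on chromosome 5 (mm9).

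Close relatives in this family can share labelled RNA. The probes of Cyp3a25 and Cyp3a57, which had similar gaps (-4.66 and -4.87 in G181R, -2.15 and -2.19 in wild-type), are shown for this reason. Their 60-base probes overlap by 52 bases when aligned, 49 of them identical. The last 30 of the overlapping bases, 5′ to 3′ as the array design gives them with differing bases in capitals, read as follows.
Cyp3a25: tcaagagataaacccagaactggaTcAtga
Cyp3a57: tcaagagataaacccagaactggaCcGtga
The 2 genes should be read as 1 signal. Next in likeness were the probes of Cyp3a16 and Cyp3a25, identical at 24 of 32 aligned bases. Probes were compared only with each other, and their match to RNA of other family members was not tested.

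Other genes of xenobiotic metabolism also had jejunal gaps. Of 28 measured, 23 were at least 2-fold lower in G181R ileum and none higher. The median gap was -2.35 in G181R and -1.82 in wild-type, and 6 were wider and 1 narrower. The gap lay at least 2-fold further toward jejunum for 7 of the 28, against 2.06% of all genes. Cyp2c55, a cytochrome P450 of the gut, gave 749 and 73.4 in G181R and 2156 and 1633 in wild-type, gaps of -3.35 and -0.40. Its second probe gave -3.22 in G181R and the same difference of gaps, -2.95. Cyp2d26 (-5.10, -3.55), Cyp4v3 (-3.95, -2.65) and Cyp2c65 (-3.23, -2.04) were wider as well. Abcb1a, the drug efflux pump P-glycoprotein, was higher in wild-type ileum by 1.71 and by only 0.26 in G181R. Nr1i2, the pregnane X receptor that senses such compounds, had the same gap in both, -1.06 and -1.10, and the related receptor Nr1i3 had -3.51 and -3.34. Leap2, a peptide hormone (-7.39, -6.17), and Aadac, a microsomal esterase (-7.19, -5.82), were wider and among the 10 largest jejunal gaps. With normexp their differences of gaps were -0.71 and -0.89, under 2-fold.

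Further jejunal genes with wider gaps rest on dim signals or single probes. Hectd2, a ubiquitin ligase, had the largest gain, with 117 and 10.1 in G181R and 53.3 and 57.2 in wild-type, gaps of -3.53 and 0.10. With normexp background correction its difference of gaps was -1.26 in place of -3.64. Pcp4l1, a calmodulin-binding peptide, gave 386 and 26.6 against 281 and 134, gaps of -3.86 and -1.07, but its other probe gave a difference of only -0.47. The other probe of Vwa1, a matrix protein, gave a difference of -0.12, next to -2.25 for the probe used. Trps1, a transcriptional repressor, gave 38.5 and 8.36 against 17.9 and 16.5, and its difference of gaps was -0.49 with normexp in place of -2.09.

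Smooth muscle genes were higher in ileum in wild-type mice and higher in jejunum in G181R mice. Of 14 genes, 13 were measured on all 4 arrays, with a median gap of -1.02 in G181R (-0.57 with normexp) and 1.42 in wild-type. The difference of gaps was at least 2-fold downward for 9 of the 13, against 2.06% of all genes, and 6 of the 17 turned genes were in this list. Lmod1, leiomodin, was not well above background on either G181R array. Myl9, a myosin light chain, gave 1581 and 719 in G181R and 1340 and 4764 in wild-type, gaps of -1.14 and 1.83. Synm, an intermediate filament protein, gave 114 and 40.0 against 96.3 and 316, gaps of -1.51 and 1.71. Des, the desmin gene, gave 55.7 and 20.6 against 42.4 and 117. With normexp the G181R gaps of Synm and Des were -0.81 and -0.56, so neither stayed turned. The jejunal signals were close, and the wild-type ileum array was the high one. Cnn1, calponin, and Tagln, transgelin, had gaps of -0.59 and -0.86 in G181R and 1.90 and 1.06 in wild-type. Actg2, a smooth muscle actin, had -0.26 and 0.26. For Acta2, another, the brightest probe gave 0.10 and 0.40, but 2 further probes, also well above background on all 4 arrays, gave -0.97 and 1.61, and -0.77 and 2.04. Summed scaled signals of the list were 14981 and 10694 in G181R jejunum and ileum and 15236 and 22932 in wild-type. These genes mark the muscle beneath the scraped epithelium, and the part of tissue depth in other gaps was not tested.

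Optc, a small extracellular proteoglycan, had the largest turned difference, with 58.3 and 15.6 in G181R and 22.7 and 95.2 in wild-type, gaps of -1.90 and 2.07, and with normexp its G181R gap was -0.71. Fhl1, a LIM protein of muscle, gave 377 and 612 against 485 and 3667, gaps of 0.70 and 2.92, and so lost most of an ileal gap. Grem1, a BMP antagonist of the muscle layer, had 1.26 and 3.23, and Stmn2, a neuronal microtubule protein, -0.24 and 2.25. Of 9 nerve and glia genes on all 4 arrays, 5 had a lower gap in G181R and 4 a higher one. Msln, a mesothelial surface protein, gave 57.4 and 57.6 in G181R and 11.6 and 107 in wild-type, so the gap was 0.01 against 3.21. Of the fibroblast list, all 12 were measured, 7 were at least 2-fold lower and 2 higher in G181R ileum, with a median of -1.05 in G181R and -0.55 in wild-type. Its summed signals were 12532 and 4903 in G181R and 13782 and 6816 in wild-type. Adipocyte marker genes had median gaps of 1.94 in G181R and 2.99 in wild-type over 8 genes. Their summed signals ran the other way, with 11757 and 4747 in G181R jejunum and ileum and 13220 and 9765 in wild-type. Cidec of that list had a G181R gap of -2.57. With normexp the G181R gap of Plin4 was 0.60 in place of 1.78, while that of Cfd was 3.13 in place of 3.60. Cdc73, of the RNA polymerase associated complex, had the largest loss in numbers, a gap of 0.18 in G181R and 4.45 in wild-type. Its other 2 measured probes gave differences of gaps of only 0.03 and 0.05, so this value rests on 1 probe.

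Most B cell genes had larger ileal gaps in G181R mice. Of 17 list genes 12 were measured, 8 at least 2-fold higher in G181R ileum and none lower, with a median gap of 2.46. On the 11 measured on all 4 arrays the median was 2.99 in G181R and 1.28 in wild-type, and 6 were wider. Of the 11, 8 had a higher gap in G181R than in wild-type and 3 a lower one. The gap lay at least 2-fold further toward ileum for 6, against 1.75% of all genes. Cr2, a complement receptor, gave 23.7 and 414 in G181R and 65.3 and 217 in wild-type, gaps of 4.13 and 1.73, and its other measured probe had 2.17 in G181R. Its jejunal signal was lower and its ileal signal higher in G181R. Genes of the list were dim in jejunum, and normexp background correction took the median G181R gap from 2.46 to 0.73 and the median difference of gaps from 1.42 to 0.55. A strict filter on dim probes took the latter to 0.46. Ms4a1, which encodes CD20, had 4.92 and 2.26, but its other probe gave -0.08 in G181R. Fcmr, the receptor for IgM, was not well above background in G181R jejunum and at least 44.6-fold higher in ileum. Summed signals of the list were 2824 and 4798 in G181R and 2854 and 3773 in wild-type, and the part of lymphoid follicles in other ileal gaps was not tested.

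MHC class II genes were at least 2-fold higher in G181R ileum for 9 of 9 measured, with a median gap of 1.60 against 0.75 in wild-type. H2-Aa gave 284 and 1170 in G181R and 325 and 756 in wild-type, gaps of 2.04 and 1.22. Cd74, the invariant chain, had 1.96 and 1.14, and their activator Ciita 1.21 and 0.53. Only H2-Oa among them differed by 2-fold between the gaps, where 3.81% of all genes did. Its gaps were 1.60 against 0.21, and with normexp its difference was 0.59. Genes of plasma cells were higher in ileum for 7 of 7 measured, with a median of 1.52 in G181R and 1.11 in wild-type. T cell genes were still detected, though the mice lacked the receptor chains: 12 were measured, with a median gap of -0.43 in G181R and -0.77 in wild-type. Gzma, a granzyme of cytotoxic lymphocytes, was higher in jejunum in both (-2.37, -2.71).

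**Figure D5:**
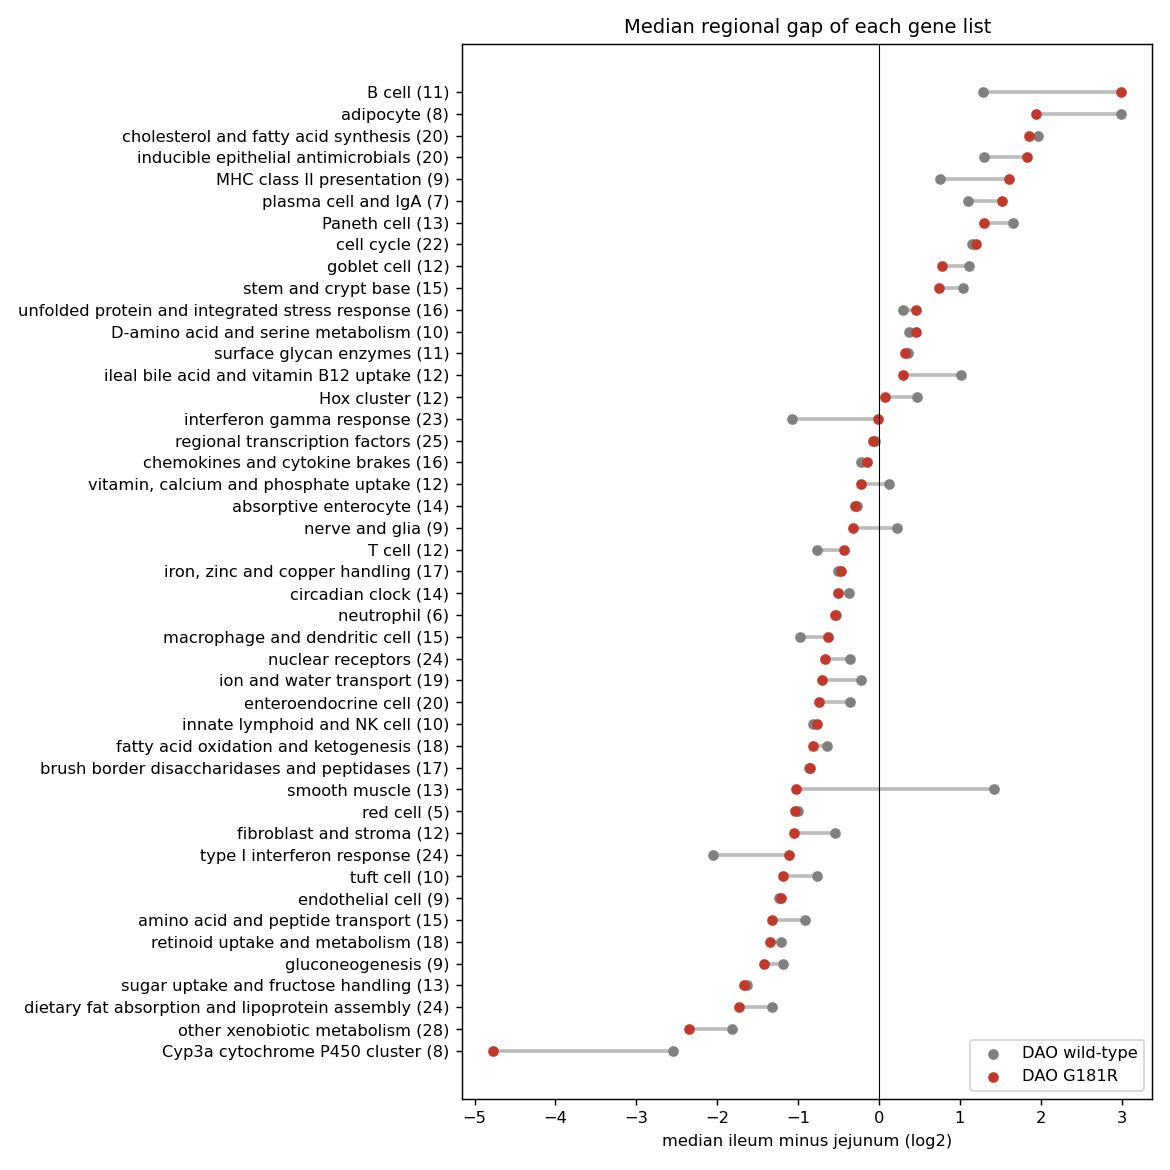
Median ileum minus jejunum (log2) of each gene list with at least 5 members measured on all 4 arrays (number in brackets), DAO wild-type in grey and DAO G181R in red. Smooth muscle lies at 1.42 in wild-type and -1.02 in G181R, and the Cyp3a cluster at -2.54 and -4.77, while the cell cycle list lies at 1.15 and 1.20.

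Digestion and absorption of sugar and fat lay on the jejunal side in G181R mice. Of 24 genes of fat absorption and lipoprotein assembly, 17 were at least 2-fold lower in ileum and 2 higher, with a median gap of -1.74 against -1.32 in wild-type. Fabp1, a fatty acid carrier, had -5.82 and -5.26, and Cd36, a fatty acid transporter, -4.99 and -4.88. Apoc2, the activator of lipoprotein lipase, was narrower, with 93408 and 6922 in G181R and 98801 and 2318 in wild-type. Angptl4, a lipase inhibitor induced by fasting, was wider, with 5419 and 687 against 15320 and 6024, gaps of -2.98 and -1.35. For sugar uptake, 11 of 14 genes were at least 2-fold lower in G181R ileum and 1 higher. The glucose and fructose transporters Slc2a2 (-6.40, -7.04) and Slc2a5 (-3.88, -3.74) were close between genotypes, and Slc5a4a, a glucose sensor of the transporter family, was wider (-5.08, -3.90), though its difference of gaps was -0.18 with normexp in place of -1.18. Of 17 brush border enzymes, 8 were lower and 3 higher by 2-fold. Sis, sucrase-isomaltase, had -1.59 and -1.06 (-2.89 in G181R by its other probe), and Nt5e, an ectonucleotidase, was wider at -2.92 against -1.10. Retinoid genes had 11 of 18 at least 2-fold lower and none higher. Rdh7, a retinol dehydrogenase, gave 3331 and 28.4 in G181R and 5572 and 168 in wild-type, gaps of -6.87 and -5.05, a difference of -1.82 that was -0.71 with normexp.

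Among transporters of amino acids, 8 of 15 were at least 2-fold lower and 2 higher in G181R ileum. Slc7a8, a basolateral exchanger, had -5.45 and -4.65, and Slc36a1, which carries small amino acids including some D-forms, had -3.23 and -3.38 (-1.71 in G181R by its other probe). Of 10 genes of D-amino acid and serine metabolism, none had gaps that differed 2-fold between genotypes, which is near the 3.81% of all genes that did. Cat, the catalase that removes the peroxide DAO makes, had -2.42 and -1.64, and Srr, the serine racemase, -1.01 and -0.79. Gluconeogenesis genes were lower in G181R ileum by 2-fold for 6 of 9. G6pc, the glucose-6-phosphatase, gave 1174 and 59.1 against 3464 and 523, gaps of -4.31 and -2.73, a difference of -1.58 that was -0.79 with normexp.

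On the ileal side, transport of bile acids and vitamin B12 showed smaller gaps for some members. Cubn, cubilin, the receptor for vitamin B12 with its intrinsic factor, gave 1796 and 2863 in G181R and 4020 and 17595 in wild-type. Its gap was 0.67 against 2.13. Nr1h4, the bile acid receptor FXR, had 1.73 and 2.01, and Slc51b, a subunit of the basolateral bile acid exporter, had 1.29 and 1.89. Fgf15, the hormone that signals bile acid uptake to the liver, gave 9.53 and 192 in G181R and was not well above background in wild-type jejunum. Slc52a3, the riboflavin transporter, gave 3400 and 4800 against 1096 and 5397, a gap of 0.50 against 2.30. The jejunal signals differed more than the ileal ones.

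Genes of sterol and fatty acid synthesis were mostly higher in ileum in both genotypes: 13 of 20 by 2-fold in G181R, none lower, with medians of 1.86 and 1.96. Of the 20, 15 had a lower gap in G181R and 5 a higher one, and 1 was narrower. Acacb had a G181R gap of -0.38 and a difference of gaps of -2.06, which was -0.60 with the mean of its probes. Sqle, squalene epoxidase, had 3.51 and 3.85, and Scd2, a desaturase, 4.76 and 4.70. Cell cycle genes were higher in G181R ileum for 22 of 22, 16 of them by 2-fold, with medians of 1.20 and 1.15, such as Cdk1 with 1.58 in both. Crypt base genes were higher for 15 of 15, with medians of 0.74 and 1.04, and the stem cell marker Lgr5 had 1.37 and 1.58. Of 13 Paneth cell genes 8 were at least 2-fold higher and none lower, with medians of 1.30 and 1.65. Mmp7, the protease that activates defensins, had 2.45 and 2.73. Goblet cell genes had medians of 0.78 and 1.11. No gene of the cell cycle, crypt base, Paneth or goblet lists had a gap that differed by 2-fold between the genotypes, where 3.81% of all genes did, a share that leaves few to be found in lists of this size.

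Of 20 enteroendocrine genes on all 4 arrays, 17 had a lower gap in G181R than in wild-type, with medians of -0.74 and -0.36. Wider were 2, Tac1 toward ileum and Pax6, a transcription factor of hormone cells, toward jejunum (-4.26, -2.83). The gap lay at least 2-fold further toward ileum for 1 and toward jejunum for 1, against 1.75% and 2.06% of all genes. The Pax6 difference of gaps was -1.44, but 0.03 with normexp and -0.29 with the mean of its probes, and either ends that call. Among the hormones, Pyy was higher in ileum (5.51, 5.68), and Gip (-5.17, -5.14) and Cck (-2.94, -3.30) in jejunum, in both genotypes. Of the transcription factors of regional identity, 7 of 25 were at least 2-fold lower and 5 higher in G181R ileum. In this list 1 was narrower, Gata4, a call lost with normexp (0.38) and with the mean of its probes (0.65). Its gap was the only 1 at least 2-fold further toward ileum, against 1.75% of all genes. Foxa1 had 2.27 and 2.48 and Osr2 2.07 and 2.58. In the Hox cluster, which sets position along the body, 13 of 36 genes were measured in G181R and 4 were at least 2-fold higher in ileum, none lower. Hoxb9 and Hoxb6 were not among them, since neither was well above background in G181R jejunum. They were at least 152-fold and 72.3-fold higher in G181R ileum. Summed scaled signals of the list were 440 and 3931 in G181R jejunum and ileum and 490 and 5873 in wild-type. Of the 12 on all 4 arrays, 10 had a lower gap in G181R and 2 a higher one, with medians of 0.07 and 0.47. By at least 2-fold 3 were lower and 1 higher, against 2.06% and 1.75% of all genes, and 2 were narrower. With normexp these differences were -0.35 for Hoxa7, -0.62 for Hoxc6, -0.21 for Hoxd8 and 0.38 for Hoxa9, all under 2-fold. Hoxb7 gave 36.2 and 1439 in G181R and 26.8 and 2098 in wild-type, gaps of 5.31 and 6.29, and Hoxb5 had 3.68 and 4.18.

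Tuft cell genes were at least 2-fold lower in G181R ileum for 6 of 10, with medians of -1.18 and -0.77, and Ltc4s, the leukotriene synthase, had -3.03 and -2.77. Genes of the circadian clock were lower by 2-fold for 4 of 14 and higher for none. Nr1d1, a repressor of the clock, gave 142 and 10.6 in G181R and 169 and 24.1 in wild-type, gaps of -3.74 and -2.81. Endothelial genes had equal medians of -1.21 and -1.24, and macrophage genes -0.63 and -0.98. Slc40a1, the iron exporter ferroportin, was higher in ileum in both (3.06, 2.68). Genes of the unfolded protein and integrated stress responses had medians of 0.46 and 0.30. B3galt5, a glycosyltransferase of surface glycans, gave 13016 and 18597 in G181R and 751 and 2044 in wild-type. Both G181R tissues were thus far above both wild-type tissues, while the gap was only 0.51 in G181R and 1.44 in wild-type. Vitamin C and folate uptake were jejunal in both genotypes, with -5.51 and -5.07 for Slc23a1 and -4.45 and -4.88 for Slc46a1. In that list of vitamin, calcium and phosphate uptake, 3 of 12 gaps lay at least 2-fold further toward jejunum in G181R, against 2.06% of all genes: Slc52a3, the calcium-binding S100g (-0.75, 0.30) and the phosphate carrier Slc34a2 (2.13, 3.41). Of the pancreas list 4 of 11 genes were measured, none at 2-fold. Of the beta-defensins, antimicrobial peptides, 1 of 6 was measured, since most were not well above background in jejunum. Their summed ileal signal was 68.5 in G181R and 491 in wild-type, with 31.9 and 291 for Defb37.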

How the data were processed

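Agilent 1-colour (Cy3) mouse arrays each took 100 ng of RNA pooled from 5 mice, with integrity numbers over 9 per the labels. Processed intensity came, per the file headers, from Agilent Feature Extraction 11.5.1.1, which subtracted background and removed spatial and multiplicative trends inside an array but scaled nothing between arrays. Other columns used are, per the file headers, per-spot flags of 0 or 1 (well above background, saturated, outlier). The series' value table was not used here.

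Control spots and outlier spots (59 to 66 per array) were left out, log2 processed intensity was averaged per probe, and the 75th percentile of the array was subtracted. A probe counted as well above background when a share of more than 0.5 of its spots carried the flag. Each gene was read from the probe with the highest mean over the 4 arrays. Of 56605 probes, 32989 took their symbol through RefSeq accessions (GRCm38.p6 gene table) and 23616 kept the design's name. Probe coordinates are in mm9 as deposited. A bound sets the bright array against the higher of the probe's own signal and the lowest signal well above background on the other array. With 1 array per group no p-value was computed, and precision is limited by that number. The classification was tested on simulated data.

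Members and lists (47 lists, 759 genes, 741 on the array) were chosen with earlier results of these data known, and so support nothing by their choice. Genes were named by rule: the 10 highest and lowest gaps, 10 each of the wider, narrower and turned genes by side, the 5 largest bounds of each direction, members of each list, and Dao. A few list members are counted but not reported here by name. Promoters are RefSeq windows, 1 per gene. The interferon-stimulated motif was added after earlier promoter results were seen. The GATA and CDX motifs and the inverted repeat of the bile acid receptor were searched as well, and the last matched 2 of the 27025 promoters. Alternatives were normexp background correction (offset 50), quantile normalization, median centring, no filter and a strict filter on dim probes (4 times the lowest signal well above background), the mean of a gene's probes, and folds of 1.5 and 4. Counting Cyp3a25 and Cyp3a57 once was an alternative chosen after seeing the data. Python 3.11.15 and R 4.3.3 with limma 3.58.1 were used.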

Additional observations from a re-analysis of the deposited data

Results flagged for a closer look

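For 10 named genes the regional gap ran in opposite directions in the 2 genotypes, at least 2-fold in each, with 1 array of pooled RNA per group. The difference between the genotypes was not tested. The difference of gaps, G181R minus wild-type on the log2 scale, was -3.97 for Optc, -3.23 for Cyp3a44, -3.22 for Synm, -3.06 for Synpo2, -2.97 for Myl9, -2.90 for Des and -2.88 for Tpm2, which were higher in ileum in wild-type and higher in jejunum in G181R. It was 2.81 for Tgtp2, 2.74 for Iigp1 and 2.66 for Traf3ip3, which ran the other way. Of these, Synm, Synpo2, Myl9, Des and Tpm2 are in the smooth muscle list. A second Synpo2 probe gave a difference of gaps of -0.81, and a second Traf3ip3 probe 1.49. Traf3ip3 was dim, with scaled signals of 9.44 and 20.4 in G181R and 37.7 and 12.9 in wild-type, and its G181R gap was 0.13 after normexp correction. With that correction only Myl9 and Tgtp2 of the 10 stayed turned: the G181R gap was -0.71 for Optc, -0.90 for Cyp3a44, -0.81 for Synm, -0.90 for Synpo2, -0.56 for Des and -0.95 for Tpm2, and the wild-type gap of Iigp1 was -0.95.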

How the results depend on the processing

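Each count moved with how dim signals were treated. The 6 counts are, in order, genes at least 2-fold higher and lower in G181R ileum, genes 2-fold different in wild-type, and regional genes with a wider, narrower and turned gap. With normexp background correction they were 769, 975, 1801, 89, 72 and 2, and without a filter on dim probes 2954, 3963, 7032, 1537, 1718 and 261. A threshold of 1.5-fold gave 3489, 4029, 7485, 887, 874 and 88, and one of 4-fold 350, 487, 813, 34, 17 and 0. With the strict filter the wider, narrower and turned counts were 129, 118 and 11, and the other 3 stayed within 1.5 times. Quantile normalization, median centring and the mean of a gene's probes kept all 6 within 1.5 times. With normexp, 83 of the 272 wider and 69 of the 224 narrower genes stayed in their class. Of 54 named genes whose G181R gap reached 2-fold, 43 did so in the same direction with normexp, and of 54 whose gaps differed 2-fold between genotypes, 46 did. Among the listed and named genes, no G181R gap of at least 2-fold changed direction under any of the alternatives run, and no such list median did. Wild-type gaps did not all keep theirs: that of Lcn2 was -1.42 with quantile normalization and 0.16 with the mean of its probes. Nor did all differences of gaps: that of Pax6, -1.44, was 0.03 with normexp. With normexp, the smooth muscle median was -0.57 in G181R, and the gap difference of Hectd2, which was -3.64, became -1.26. No paired analysis was possible because each group is 1 array of pooled RNA, and for the same reason no replicate could be left out.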
